A study of Mus musculus with 49 samples.

Results

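The genes described here encode the proteins of the mitochondrial ribosome and of the protein import machinery of the mitochondrial membranes. They were chosen by name alone, as every gene whose name in the array files begins with Mrpl or Mrps followed by a number, with Timm or with Tomm. Mrpl58, which the files list under its older name Ict1, was therefore not among them. This gave 57 of the 5776 named genes: 31 proteins of the large ribosomal subunit, 16 of the small subunit, 7 inner membrane translocase genes (Timm17a, Timm17b, Timm22, Timm44, Timm50, Timm8a1 and Timm8b) and 3 outer membrane genes (Tomm20, Tomm34 and Tomm40). They are represented by 74 of 7739 cDNA clones, and a gene with several clones, as 16 of them have, is given by its brightest clone.

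Mitochondria make a small set of respiratory chain subunits on their own ribosome, whose RNA is encoded in the mitochondrion and whose proteins all come from nuclear genes. Those proteins, like nearly all of the organelle, are made in the cytosol and brought in through the TOM pore of the outer membrane and the TIM translocases of the inner membrane, with small TIM chaperones carrying hydrophobic cargo across the space between. Blood leukocytes build up this machinery when they are activated and grow, and an outer membrane pore, a presequence motor and a ribosome each need many subunits in fixed proportion.

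Peripheral blood mononuclear cells (PBMC) were taken from wild-type female C57Bl/6J mice, 7 weeks old, that had been anaesthetised with xylazine and ketamine and given either oleic acid (abbreviated OA), which damages the lung on this route, or physiological serum into the tail vein. Blood was taken 1, 1.5, 3, 4, 18 or 24 h later, from 4, 6, 4, 4, 4 and 4 OA mice and from 2, 1, 2, 2, 2 and 2 serum mice. Each amplified RNA was hybridised with a radioactive label to nylon filters of spotted cDNA, giving 49 arrays of 37 mice, of which 12 mice had 2 arrays that were averaged. No mouse was sampled without injection and anaesthesia, so every group shares both. The extraction text names lung where the sample labels name PBMC, and whether mononuclear cells were isolated before extraction is not settled by the labels. Values are log2 quantile-normalised spot signals, 1 per mouse, and differences are given on the log2 scale, each with a standard error (SE). Stages are called early (1 and 1.5 h, 10 OA and 3 serum mice), middle (3 and 4 h, 8 and 4 mice) and late (18 and 24 h, 8 and 4 mice). A gene was called at a Benjamini-Hochberg adjusted p under 0.05 over all 7739 clones in limma's moderated test.

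The median signal of the clone spots was between 83 and 364 on every array, and from 41.8% to 57.88% of them lay well above the empty spots, meaning above their median by 2.6 robust SDs. The number of arrays limits the precision of every value below. Before any result, 7 of the 37 mice stood apart from the other 30 on the first principal component, which held 36.21% of the variance. They scored 38.22 or more, while no other mouse scored above 6.67. They are serum 4 h mice 1 and 4, OA 4 h mice 2 and 3, OA 3 h mouse 7, OA 18 h mouse 2 and serum 18 h mouse 1, so 3 of the 8 middle OA mice, 1 of the 8 late OA mice and none of the early mice are among them. The median signal per mouse was 89 to 203 in these and 97.5 to 364 in the others, and 41.8% to 49.22% of their spots were well above background against 46.27% to 57.88%. Of the 35 OA arrays, 34 were set by the authors against serum of their own time in the deposited log ratios, and the array of OA 3 h mouse 3 was set against serum of 1.5 h. That mouse was kept at 3 h, as it is titled.

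Marker genes of blood cells gave the following check of the samples. T cell markers were well above background on at least 25 arrays for 16 of 25 genes, B cell markers for 12 of 16, monocyte and macrophage markers for 10 of 16, neutrophil markers for 8 of 11 and erythroid markers for 11 of 18. The clones of 3 T cell, 2 monocyte, 1 neutrophil, 2 erythroid and no B cell markers were well above it on no array. Clones on the neutrophil and erythroid lists thus gave signal in these samples, as did those on the mononuclear lists. Per array, 41.8% to 57.88% of all clone spots lay well above background, so these counts alone cannot tell which cells were present.

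Promoters are printed here for 5 of the 6 genes called in a comparison between stages, because the letters that regulators of mitochondrial genes are known to read can be seen in them. The windows run over 300 bases around 1 listed start of each gene in RefSeq, build GRCm38.p6, and are given 5′ to 3′ on the strand of the gene. That start is not always the outermost one of the gene. The Mrpl45 window, for example, begins at base 97315466, downstream of the gene's first base at 97314923. Capitals mark TGCGCA, the core of the site of nuclear respiratory factor 1, CCGGAAG, the core read by ETS factors such as GABP, and AAGATGGCG, the core read by YY1, on either strand.
Tomm34, chr2:164071120-164071419, minus strand: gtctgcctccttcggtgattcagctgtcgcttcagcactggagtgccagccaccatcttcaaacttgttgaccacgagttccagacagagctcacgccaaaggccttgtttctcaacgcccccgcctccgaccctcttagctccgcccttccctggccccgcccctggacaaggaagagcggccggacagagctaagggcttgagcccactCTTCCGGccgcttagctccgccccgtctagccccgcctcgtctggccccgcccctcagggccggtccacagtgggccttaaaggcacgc
Mrpl37, chr4:107066817-107067116, minus strand: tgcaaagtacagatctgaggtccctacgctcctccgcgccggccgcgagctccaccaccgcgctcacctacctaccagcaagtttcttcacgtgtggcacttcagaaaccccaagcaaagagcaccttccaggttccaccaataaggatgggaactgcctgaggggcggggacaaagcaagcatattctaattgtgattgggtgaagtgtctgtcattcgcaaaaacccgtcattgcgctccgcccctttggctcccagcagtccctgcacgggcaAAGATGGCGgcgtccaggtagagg
Mrpl3, chr9:105053018-105053317, plus strand: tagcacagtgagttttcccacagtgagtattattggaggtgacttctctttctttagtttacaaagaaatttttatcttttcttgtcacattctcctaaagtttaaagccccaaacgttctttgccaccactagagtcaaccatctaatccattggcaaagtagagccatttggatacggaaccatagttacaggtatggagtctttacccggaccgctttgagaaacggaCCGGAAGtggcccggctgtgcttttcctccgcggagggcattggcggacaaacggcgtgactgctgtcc
Timm8b, chr9:50603651-50603950, plus strand: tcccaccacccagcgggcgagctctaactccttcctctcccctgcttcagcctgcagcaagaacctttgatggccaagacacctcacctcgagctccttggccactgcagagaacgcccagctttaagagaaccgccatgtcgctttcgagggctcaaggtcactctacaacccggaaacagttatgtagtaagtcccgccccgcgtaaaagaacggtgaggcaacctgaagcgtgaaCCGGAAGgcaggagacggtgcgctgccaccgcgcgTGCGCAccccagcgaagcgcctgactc
Mrpl45, chr11:97315466-97315765, plus strand: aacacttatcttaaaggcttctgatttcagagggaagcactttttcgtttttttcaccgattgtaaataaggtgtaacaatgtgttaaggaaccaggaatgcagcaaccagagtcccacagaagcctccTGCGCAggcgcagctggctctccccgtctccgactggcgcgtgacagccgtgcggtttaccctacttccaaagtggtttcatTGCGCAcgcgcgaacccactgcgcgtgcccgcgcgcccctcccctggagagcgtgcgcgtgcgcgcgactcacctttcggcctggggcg

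TGCGCA reads the same on both strands, CTTCCGG in the Tomm34 window is CCGGAAG read on the other strand, and the end of CCGGAAG can overlap the beginning of AAGATGGCG. The Mrps15 promoter, the sixth of these genes, held none of the 3 in its window. RefSeq windows were matched for 50 of the 57 genes, and Mrpl13, Mrpl38, Mrpl4, Mrpl54, Mrps28, Mrps34 and Mrps35 were without one. Of the 50 windows, 15 (30%) held TGCGCA, against 8.06% of the windows of all 27025 genes. CCGGAAG was in 13 (26%), against 9.12%, and AAGATGGCG in 5 (10%), against 1.49%. At least 1 of the 3 was in 27 of 50 (54%), against 16.8% of all genes. By class it was in 48.1% of 27 large subunit windows, 76.9% of 13 small subunit windows, 28.6% of 7 inner membrane windows and 66.7% of 3 outer membrane windows. A match is a description of the letters and not a measured site.

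Mrps11 and Mrpl46, a small and a large subunit gene on chromosome 7, start 42 bases apart in opposite directions, and their windows overlap by 141 bases. Their signals, with group means removed, correlated with r = 0.40 over the 30 mice and r = -0.24 over all 37, so that the sign turned with the 7 mice that stand apart. Mrps11 was well above background on 10 of 49 arrays and Mrpl46 on all 49.

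Mean signals of the 57 genes ran from percentile 9.7 (Mrpl14 and Mrps18c) to percentile 94.1 (Tomm34) of those of all clones. Well above background were 28 genes on at least 25 of the 49 arrays and 8 genes on all of them, while 8 genes were on none (Mrpl47, Mrpl50, Mrps12, Mrps18a, Mrps18c, Mrps22, Mrps28 and Mrps7). The brightest clone of the large subunit was that of Mrpl30, with a mean of 9.28 over the 37 mice, and the dimmest that of Mrpl14, with 6.34. In the small subunit the clones ran from Mrps10 at 9.25 to Mrps18c at 6.34. Among the inner membrane genes Timm8b, a small chaperone of the intermembrane space, stood at 9.27 and Timm44, which ties the presequence translocase to its motor, at 7.04. Tomm34, a cytosolic co-chaperone named with the outer membrane translocase, stood at 10.59 and Tomm40, the pore itself, at 8.98. Clones differ in length and hybridisation, so these values are not an order of expression.

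**Figure D1:**
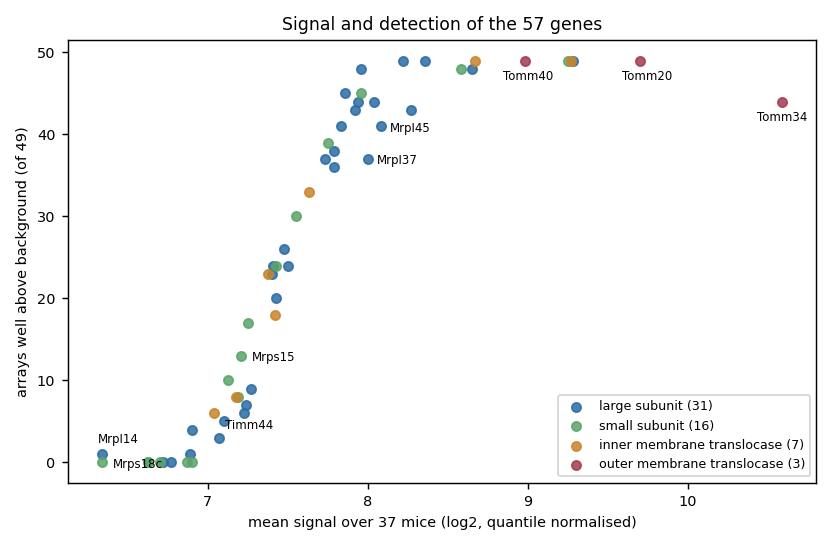
Mean log2 signal over 37 mice (horizontal axis) against the number of the 49 arrays on which the gene was well above the empty spots (vertical axis), 1 point for each of the 57 genes, coloured by class. Genes at 8 of the points lie on 0 arrays and 8 on all 49.

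The mean signal of the 57 genes differed between stages and between treatments by no more than about the spread between mice. The mean of the 57 signals per mouse was 7.69 ± 0.06 (SD, n = 10) in early, 7.70 ± 0.05 (n = 8) in middle and 7.66 ± 0.06 (n = 8) in late OA mice. Serum mice had 7.64 ± 0.03 (n = 3), 7.72 ± 0.07 (n = 4) and 7.66 ± 0.07 (n = 4). Over all times it was 7.68 ± 0.06 in 26 OA mice and 7.67 ± 0.07 in 11 serum mice. Large subunit genes alone gave 7.61, 7.67 and 7.60 in early, middle and late OA mice and small subunit genes 7.37, 7.34 and 7.31, with SDs of 0.07 to 0.09. Quantile normalisation gives every array the same distribution of signals, so these means are relative to the other genes. In bulk RNA, fewer cells of a type and less of an RNA per cell cannot be told apart.

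Between the early and the middle OA mice 5 of the 57 genes changed (8.77%), against 9.21% of all clones, so the share was near the background. Mrpl3 and Timm8b rose, and Mrpl37, Mrps15 and Tomm34 fell. The median difference over the 57 genes was 0.02, against 0.05 over all clones, with 33 of 57 above 0 and 12 at an unadjusted p under 0.05. By class, 1 large subunit gene rose and 1 fell of 31 (median 0.04), 1 small subunit gene fell of 16 (median 0.01), 1 inner membrane gene rose of 7 (median -0.03) and 1 outer membrane gene fell of 3.

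Mrpl3, the counterpart of the bacterial L3 protein that lies near the catalytic centre of the large subunit, was higher in the middle than in the early OA mice. OA mice had 7.63, 7.05, 7.47 and 7.58 at 1 h, and from 7.38 through a median of 7.57 to 7.87 at 1.5 h. At 3 h they had 7.87, 8.14, 8.05 and 7.96, at 4 h 8.03, 8.62, 8.6 and 7.87. The 8 middle mice all lay above the 10 early mice, although the nearest both round to 7.87, and it was the only member whose groups did not overlap, which 21 of 7739 clones (0.271%) showed in either direction. The means were 8.14 and 7.51, a 1.55-fold difference (0.63 ± 0.12, limma adjusted p = 0.00232), with 10 of 11 and 11 of 13 arrays well above background. In the 12 mice with repeated arrays, the arrays of a mouse differed for this clone by a median of 0.14 and at most 1.59. That largest gap exceeded the difference between the stages, and no other gene described here had a larger one. By 18 h the values were 7.95, 7.89, 7.28 and 7.59 and by 24 h 7.37, 7.21, 7.38 and 7.48, of which 6 of 8 lay within the early range. Serum mice had 7.92 and 7.75 at 1 h, 7.69 at 1.5 h, 8.04 and 7.55 at 3 h, 7.62 and 7.79 at 4 h, 7.84 and 7.98 at 18 h, and 7.56 and 7.59 at 24 h, with early and middle values overlapping. The difference in OA mice was 0.62 (adjusted p = 0.0116) without the 7 mice that stand apart, and the call held when any 1 of the 26 OA mice was left out (largest adjusted p 0.00822). Without the 4 h mice it was 0.50 with an adjusted p of 0.247. The second, dimmer Mrpl3 clone differed by 0.18 ± 0.13 (adjusted p = 0.382), and its deviations from the group means correlated with those of the first at r = 0.05.

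Mrpl37, a large subunit protein with no bacterial counterpart, was lower in the middle stage. Its signals were 8.29, 7.82, 9.4 and 8.55 at 1 h and 8.28, 8.55 and 8.81 at 1.5 h (lowest, median and highest of 6 mice). At 3 h they were 7.90, 8.18, 8.12 and 6.91, and at 4 h 6.76, 7.38, 7.73 and 7.52. Of the 8 middle mice 5 lay below every early mouse, and the ranges overlapped only through OA 1 h mouse 3, at 7.82, and 3 mice at 3 h. The means were 7.56 against 8.54, a 1.97-fold difference (-0.98 ± 0.22, adjusted p = 0.00984). The spot was well above background on all 13 early arrays, on 6 of 11 middle arrays and on 1 of the 5 arrays of 4 h, so the middle mean rests in part on signals near the empty spots. The 3 lowest middle values, 6.76, 6.91 and 7.38, were those of the 3 middle mice that stand apart. Without the 7 mice the difference was -0.69 (adjusted p = 0.0413), and over the 26 single leave-outs the adjusted p reached at most 0.0361, without OA 3 h mouse 7. It was -0.95 (adjusted p = 0.172) without 1.5 h and -0.76 (adjusted p = 0.402) without 4 h.

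Late OA mice had Mrpl37 signals of 7.05, 7.79, 7.97 and 8.29 at 18 h and 7.5, 7.97, 8.28 and 8.27 at 24 h, all below the early median of 8.53 and overlapping the early range. Serum mice had 8.51 and 8.30, then 8.63, 8.14 and 8.06, 6.90 and 7.18, 6.44 and 8.17, and 8.58 and 8.15 in order of time. The 3 lowest serum values were those of the 3 serum mice that stand apart.

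Tomm34, which had the largest difference of the 57 genes, was called between early and middle OA mice only with the mice that stand apart. It binds the cytosolic chaperones Hsp70 and Hsp90 and is named for a role in handing over preproteins. OA mice had 10.84, 11.73, 11.80 and 11.96 at 1 h and 10.81, 11.53 and 12.19 at 1.5 h (lowest, median and highest). The 3 h mice had 11.17, 11.46, 11.31 and 6.78, and the 4 h mice 6.52, 8.01, 10.54 and 10.70. The 3 values of 8.01 or less are those of OA 3 h mouse 7 and OA 4 h mice 2 and 3, all among the 7 that stand apart. At 18 h the values were 8.55, 11.72, 11.90 and 12.09, with the lowest again in a mouse that stands apart, and at 24 h 10.63, 10.17, 10.62 and 10.65. Serum mice had 11.54 and 12.29 at 1 h, 11.52 at 1.5 h, 10.65 and 10.63 at 3 h, 6.24 and 7.48 at 4 h, 8.09 and 11.66 at 18 h, and 11.72 and 11.54 at 24 h. Each of the 7 mice was thus at or below 8.55, and each of the other 30 at or above 10.17. Among those 30, the OA mice at 4 h (10.54 and 10.70) and at 24 h (10.17 to 10.65) lay below every early OA mouse. The OA mice among them at 3 and 18 h lay within the early range of 10.81 to 12.19.

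The Tomm34 means were 9.56 in middle and 11.56 in early OA mice, a 4.01-fold difference (-2.0 ± 0.61, adjusted p = 0.0402), with 9 of 11 and 13 of 13 arrays well above background. Without the 7 mice it was -0.60 (adjusted p = 0.119), and with spots left out whose deposited quality score, 0 or 1, was 0 it was -1.03 (adjusted p = 0.161). Leaving out any of 9 of the 26 OA mice alone also ended the call, with adjusted p of 0.0547 to 0.136: mice 3, 5 and 6 at 1 h, mice 3, 5 and 6 at 1.5 h, mouse 7 at 3 h and mice 2 and 3 at 4 h. Without OA 3 h mouse 7, where the p was highest, the difference was -1.44. Among the times, its call was lost without 1 h (adjusted p = 0.102), 1.5 h (0.29) or 4 h (0.532). The axis on which those mice stand apart uses all clones, of which this is 1 among 7739. The part of RNA quality or hybridisation in it was not tested.

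Timm8b was higher in the middle OA mice, again with the highest values in mice that stand apart. The early values were 9.10, 8.98, 9.03 and 9.14 at 1 h and 8.74, 8.84 and 9.42 at 1.5 h (lowest, median and highest). The 3 h mice had 9.31, 8.95, 9.19 and 10.14, and the 4 h mice 9.98, 10.01, 9.30 and 9.01. Of the 8, 3 lay above all early mice, and they were OA 3 h mouse 7 and OA 4 h mice 2 and 3. The means were 9.49 against 9.0, a 1.4-fold difference (0.49 ± 0.15, adjusted p = 0.0461), which was 0.15 (adjusted p = 0.588) without the 7 mice. Leaving out 1 OA mouse ended the call for 15 of 26 mice, with adjusted p of 0.0505 to 0.155: mice 2, 3, 5 and 6 at 1 h, 3, 5, 6, 7 and 8 at 1.5 h, 2 and 7 at 3 h, 2 and 3 at 4 h, 6 at 18 h and 3 at 24 h. The highest was without OA 3 h mouse 7 (difference 0.36). The call was also lost without 1 h (adjusted p = 0.068), 1.5 h (0.353) or 4 h (0.497). Late OA mice had 9.12, 9.06, 9.47 and 9.10, and 9.81, 9.57, 9.21 and 9.01, all 8 above the early median of 8.97 (late minus early 0.29 ± 0.15, adjusted p = 0.229). In serum mice the signals were 9.54 and 8.89, 9.07, 9.58 and 9.32, 9.48 and 9.27, 9.18 and 9.22, and 9.73 and 9.60 in order of time.

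Mrps15, the counterpart of bacterial S15, which binds early in the assembly of the small subunit, was slightly lower in the middle stage and near background throughout. The early OA mice had 7.27, 7.15, 7.22 and 7.26 at 1 h and 7.32, 7.48 and 7.59 at 1.5 h (lowest, median and highest). Middle OA mice had 7.08, 6.89, 7.04 and 6.86 at 3 h and 7.41, 7.35, 6.83 and 6.97 at 4 h. Of these 8, 6 lay below all 10 early mice, and the other 2, at 7.41 and 7.35, were OA 4 h mice 2 and 3, which stand apart. The means were 7.05 and 7.35 (-0.29 ± 0.09, adjusted p = 0.0465). Its spot was well above background on 7 of the 13 early arrays but on none of the 11 middle ones, and no fold is given because the floor of the middle arrays, at 7.41, was above the early mean. Without the 7 mice the difference was -0.39 (adjusted p = 0.0196), whereas leaving out 1 OA mouse ended the call for 18 of 26 mice, with adjusted p of 0.0505 to 0.12. They were mice 2, 3, 5 and 6 at 1 h, 3, 5, 6, 7 and 8 at 1.5 h, 3, 4 and 7 at 3 h, 5 and 6 at 4 h, 3 and 5 at 18 h, and 2 and 6 at 24 h. The highest was without OA 3 h mouse 7 (difference -0.27). Without the 1.5 h mice the difference was -0.17 (adjusted p = 0.552), without 3 h -0.20 (0.245) and without 4 h -0.38 (0.247). At 18 h the values were 7.66, 7.40, 7.47 and 7.17, and at 24 h 6.87, 6.85, 7.28 and 7.00, so that all 4 mice at 24 h and 1 of 4 at 18 h lay below the early median of 7.36.

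**Figure D2:**
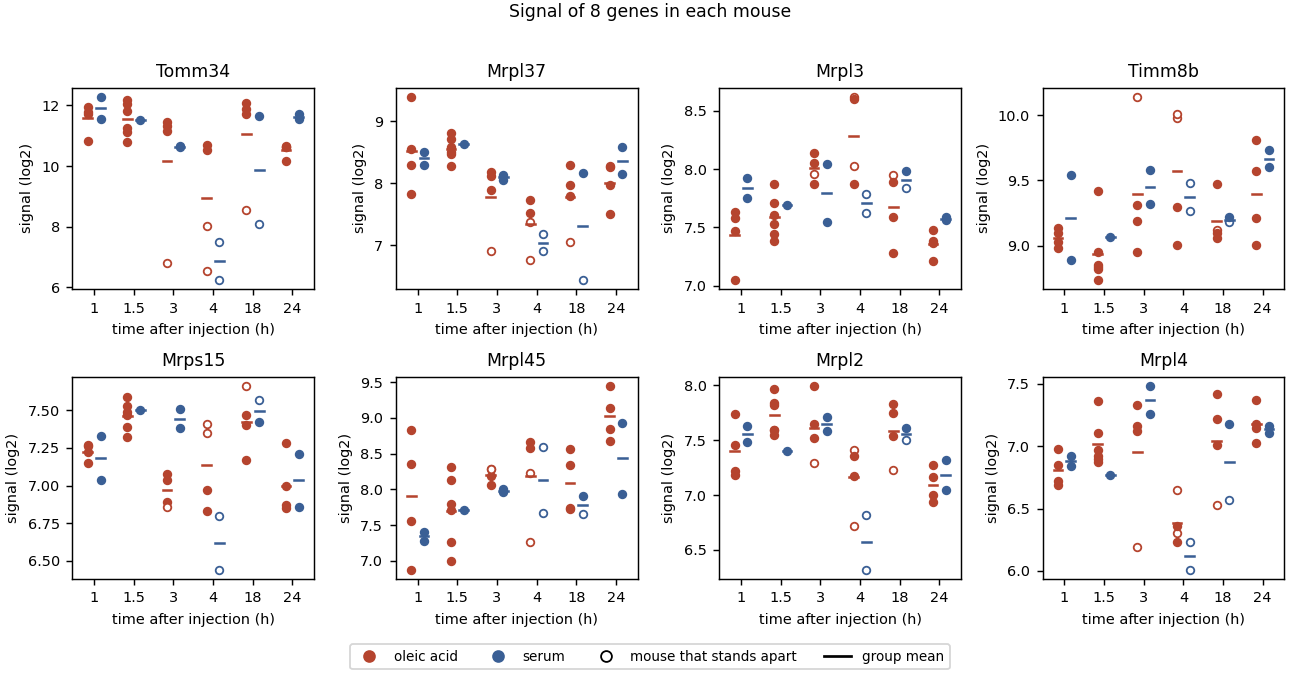
Log2 signal (vertical axis) of 8 genes in each mouse by time after injection in hours (horizontal axis), with OA mice in red, serum mice in blue, open circles for the 7 mice that stand apart and a bar for the mean of each group. The open circles of Tomm34 lie at or below 8.55 and all filled ones at or above 10.17, whereas for Mrpl3 all 8 OA mice at 3 and 4 h lie above the OA mice at 1 and 1.5 h.

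Blood cell markers also differed over this interval, in which 9.21% of all clones were called. Of 16 B cell markers 5 fell between early and middle OA mice (Btk, Cd37, Cd72, Cd74 and Cd83) and none rose, and the mean of the list per mouse was 8.69 to 9.38 in early and 8.40 to 9.06 in middle OA mice. Of 13 NK and cytotoxic markers 2 fell (Fasl and Il2rb) and 1 rose (Ncr1), with means of 7.97 to 8.51 and 7.82 to 8.19. Of 11 neutrophil markers 2 fell, and their mean was 8.11 to 9.52 and then 8.16 to 8.87. Of 25 T cell markers 1 fell (Lck), with means of 7.80 to 8.07 and then 7.80 to 8.21, and of 16 monocyte and macrophage markers 1 fell (Itgax), with 7.71 to 8.52 and 7.90 to 8.41. No platelet marker of 6 and no erythroid marker of 18 passed, the latter with means of 8.29 to 9.06 and 8.57 to 9.33. The part of cell makeup in the 5 changes was not tested.

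Between the early and the late OA mice 1 of the 57 genes changed (1.75%), against 8.23% of all clones. The median difference was -0.03, against -0.01 over all clones, with 26 of 57 genes above 0 and 10 at an unadjusted p under 0.05. The range was -0.65 to 0.75 in the 31 large subunit genes (median 0.01), -0.37 to 0.48 in the 16 small subunit genes (median -0.12) and -0.18 to 0.29 in the 7 inner membrane genes (median -0.02). Tomm34, Tomm20 and Tomm40 differed by -0.77, -0.18 and 0.49, none of which passed. The median SE over the 57 genes was 0.14.

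Mrpl45, which sits at the exit of the ribosome's peptide tunnel, resembles Timm44 and ties the ribosome to the inner membrane, was the gene that rose. Early OA mice had 8.83, 8.35, 6.88 and 7.56 at 1 h and 7.00, 7.76 and 8.32 at 1.5 h (lowest, median and highest). Late OA mice had 7.74, 8.57, 8.34 and 7.73 at 18 h and 9.44, 8.68, 9.14 and 8.84 at 24 h. At 24 h 3 of 4 mice lay above every early mouse, while at 18 h none did, so the groups overlapped. The means were 8.56 and 7.81, a 1.69-fold difference (0.75 ± 0.24, adjusted p = 0.0442), with 10 of 11 and 10 of 13 arrays well above background. With the 24 h mice as the only late mice it was 1.22 (adjusted p = 0.00919), and with the 18 h mice 0.29 (adjusted p = 0.765). Leaving out 1 OA mouse ended the call for 13 of 26 mice, with adjusted p of 0.0505 to 0.142: mice 5 and 6 at 1 h, 2, 5, 6 and 7 at 1.5 h, 2 and 4 at 3 h, 3 and 5 at 18 h, and 2, 5 and 6 at 24 h. The highest was without OA 1 h mouse 5 (difference 0.58). Without the 1.5 h mice it was 0.66 (adjusted p = 0.356). In the authors' quantile table the difference was 0.71 (adjusted p = 0.0511). Serum mice had 7.28 and 7.41, 7.71, 7.96 and 8.01, 7.67 and 8.6, 7.66 and 7.91, and 7.94 and 8.93 in order of time (late minus early 0.58 ± 0.39, adjusted p = 0.697). A second Mrpl45 clone, well above background on 33 arrays, differed by -0.14 ± 0.11 (adjusted p = 0.43) and correlated with the first at r = -0.05.

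The next smallest p-values in late against early OA mice belonged to genes that did not pass. Mrpl37 differed by -0.65 ± 0.22 (adjusted p = 0.0685), and Mrpl54, a large subunit protein, by -0.49 ± 0.17 (adjusted p = 0.0736). Mrpl28, the counterpart of bacterial L28, had 0.45 (adjusted p = 0.0993), Tomm40 0.49 (0.11) and Mrps10, the counterpart of S10, 0.48 (0.115). Mrpl13 had -0.41 (0.145), Mrpl30 -0.50 (0.159) and Mrpl36 0.54 (0.167). Mrps18c, at -0.20 (adjusted p = 0.169), was well above background on no array. Over the same interval, in which 8.23% of all clones were called, 6 of 18 erythroid markers rose, with list means of 8.29 to 9.06 in early and 8.63 to 9.81 in late OA mice, and 3 of 11 neutrophil markers fell, with list means of 8.11 to 9.52 and then 7.68 to 9.02. Of 25 T cell markers 2 rose and 3 fell, with list means of 7.80 to 8.07 and 7.77 to 7.98, and of 16 B cell markers 3 fell, with 8.69 to 9.38 and 8.79 to 9.39. Of 16 monocyte and macrophage markers 1 rose, of 6 platelet markers 1 fell, and of 13 NK and cytotoxic markers none passed. The part of these cells in the values above was not tested.

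Without the 7 mice, 7 of the 57 genes passed in late against early OA mice (12.3%, against 17.6% of all clones), including Mrpl45. Mrpl45 (0.81, adjusted p = 0.0222), Tomm40 (0.52, 0.0317) and Mrpl4 (0.28, 0.0272) were higher in the late mice. Mrpl13 (-0.52, 0.00247), Mrpl30 (-0.64, 0.00547), Mrpl22 (-0.39, 0.00599) and Mrpl37 (-0.53, 0.031) were lower. Between early and middle OA mice 3 passed (5.26%, against 2.92% of clones), which were Mrpl3, Mrpl37 and Mrps15.

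**Figure D3:**
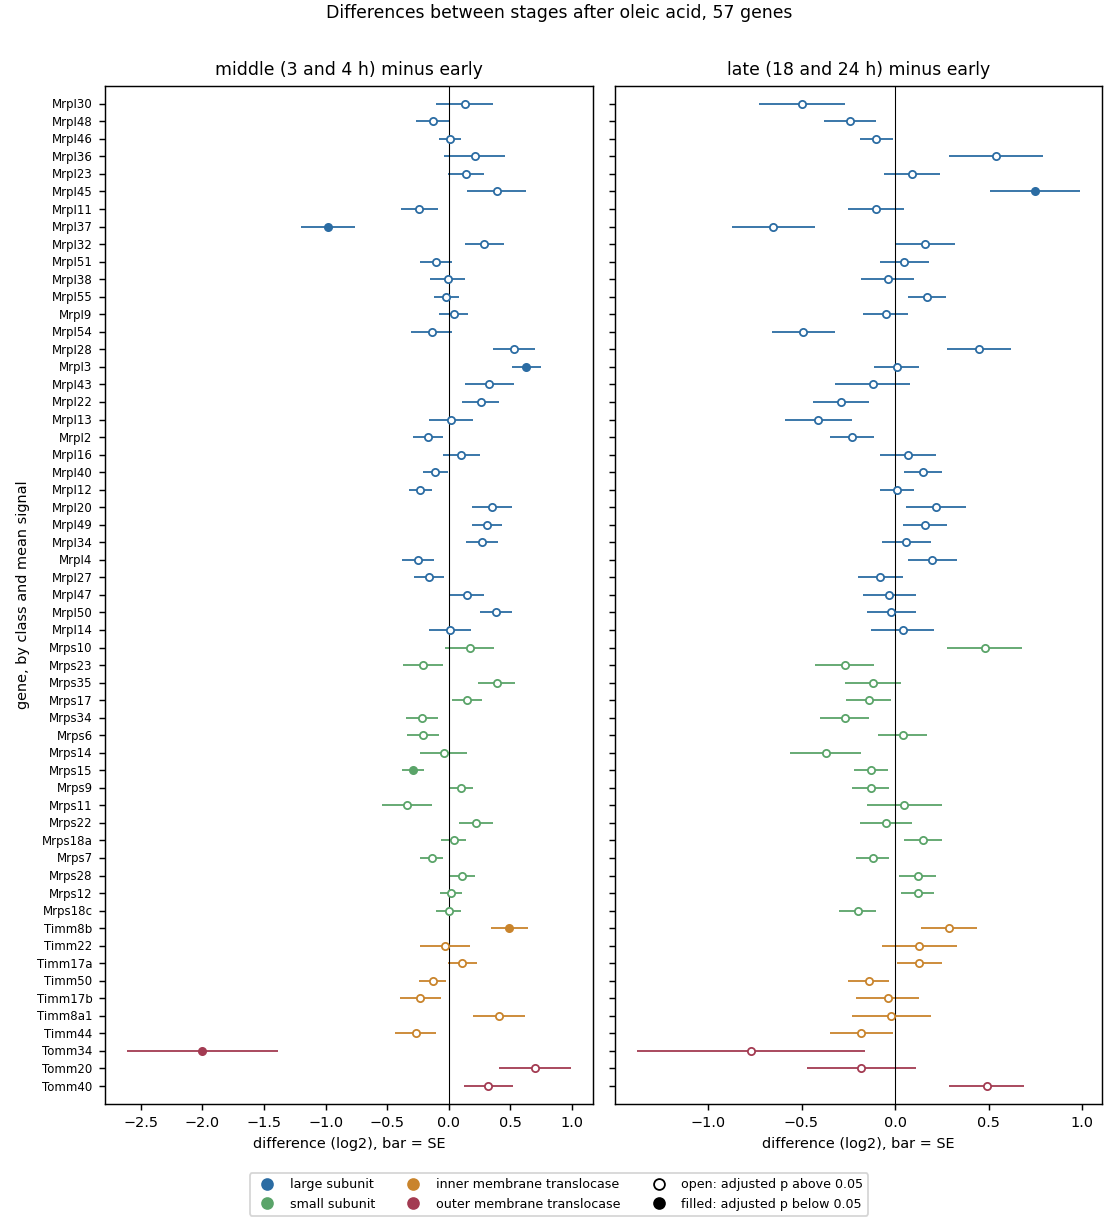
Log2 differences from early OA mice (horizontal axis, bars are 1 SE) of the 57 genes (vertical axis, grouped by class and ordered by mean signal), for the middle stage on the left and the late stage on the right. Filled points passed at an adjusted p under 0.05, which 5 did on the left and 1, Mrpl45, on the right.

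When the 6 times of the OA mice were compared without stages, by limma's F test, 5 of the 57 genes differed (8.77%), against 12.1% of all clones. These were Mrpl3 (adjusted p = 0.00412), Mrps15 (0.0233), Mrpl2 (0.0274), Mrpl37 (0.037) and Mrpl4 (0.0481), with 17 genes at an unadjusted p under 0.05. Mrpl2, which with Mrpl3 and Mrpl4 belongs to the conserved core of the large subunit, had 7.18 to 7.74 at 1 h, 7.55 to 7.97 at 1.5 h and 7.29 to 7.99 at 3 h. Its values were 6.72 to 7.41 at 4 h, 7.23 to 7.83 at 18 h and 6.94 to 7.27 at 24 h, with the lowest mice at 4 and 24 h. All 4 mice at 24 h lay below all 6 mice at 1.5 h. Mrpl2 was well above background on 7 of 8 OA arrays at 1.5 h, on 0 of 5 at 4 h and on 0 of 6 at 24 h. Its low values are thus signals near the empty spots. Mrpl4 had 6.69 to 6.98 at 1 h, 6.87 to 7.36 at 1.5 h, and 7.12, 7.16, 7.33 and 6.19 at 3 h. At 4 h it had 6.30, 6.65, 6.36 and 6.23, below every OA mouse of 1, 1.5 and 24 h, and at 18 and 24 h 6.53 to 7.42. It was well above background on 4 of 49 arrays, so no fold is given. Without the 7 mice 15 of the 57 genes passed (26.3%, against 19.5% of clones), all 5 among them. Tomm34 was also among the 15 (adjusted p = 0.00638).

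The spots around a gene carried much of its variation between mice. The filter layout is not given in the sources used here, and it was inferred after the data were seen, from how signals correlate along the file, as 64 blocks of 12 columns and 13 rows. With group means removed, over the 30 mice that do not stand apart, spots next to each other in a row correlated with a mean r of 0.48 and in a column with 0.47. Across the end of a row the mean was 0.17, across the end of a block 0.13, and for spots 6 columns apart 0.16. The signal of a member correlated with the mean of its up to 8 adjacent spots at a median r of 0.64, like that of all clones at 0.65. For 42 of the 57 genes r exceeded 0.5, which 73.2% of all clones did. It was highest for Mrpl36 (0.98), Mrpl23 (0.97), Mrpl45 (0.94) and Mrpl28 (0.92), and lowest for Mrps15 (-0.02).

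Among the called genes, Mrpl45 followed its surroundings most closely. Its adjacent spots differed by 0.55 ± 0.21 between late and early OA mice, and with their mean signal as a covariate its own difference was 0.21 ± 0.10 (adjusted p = 0.229). For Mrpl3 (r = 0.66) the adjacent spots differed by 0.37 ± 0.09 between middle and early mice, and its difference with the covariate was 0.42 ± 0.13 (adjusted p = 0.0426). For Mrpl37 (r = 0.41) the surroundings differed by -0.13 ± 0.09 and the gene by -0.81 ± 0.21 (adjusted p = 0.0229). In this fit of all mice these 2 calls were kept, and the other 3 of the middle stage were not. Tomm34 (r = 0.52) had -1.31 ± 0.50 (adjusted p = 0.10) beside a difference of -0.16 ± 0.10 in its surroundings. Timm8b (r = 0.58) had 0.41 ± 0.17 (0.121) beside 0.23 ± 0.09, and Mrps15 had -0.28 ± 0.09 (0.0608) beside 0.14 ± 0.09.

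With this covariate 3 of the 57 genes passed between middle and early OA mice, against 7.13% of all clones. Mrpl47, the addition (0.47, adjusted p = 0.0273), was well above background on no array. In the late stage 1 passed, against 5.52% of clones, and it was Mrpl20 (0.56, adjusted p = 0.0164) in place of Mrpl45. Mrpl20, a protein of the large subunit core, was well above background on 6 of 49 arrays, and its own correlation with its surroundings was 0.60 over 30 mice but -0.71 over all 37. With the covariate and without the 7 mice as well, neither Mrpl3 (0.40, adjusted p = 0.0533) nor Mrpl37 (-0.53, 0.117) passed. The 2 genes that then passed between middle and early mice were Mrps15 (-0.39, adjusted p = 0.0137) and Mrpl11 (-0.42, 0.031), against 3.71% of clones. In the late stage 1 gene passed, against 7.55% of clones, namely Mrps18c (adjusted p = 0.0291), which was well above background on no array.

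**Figure D4:**
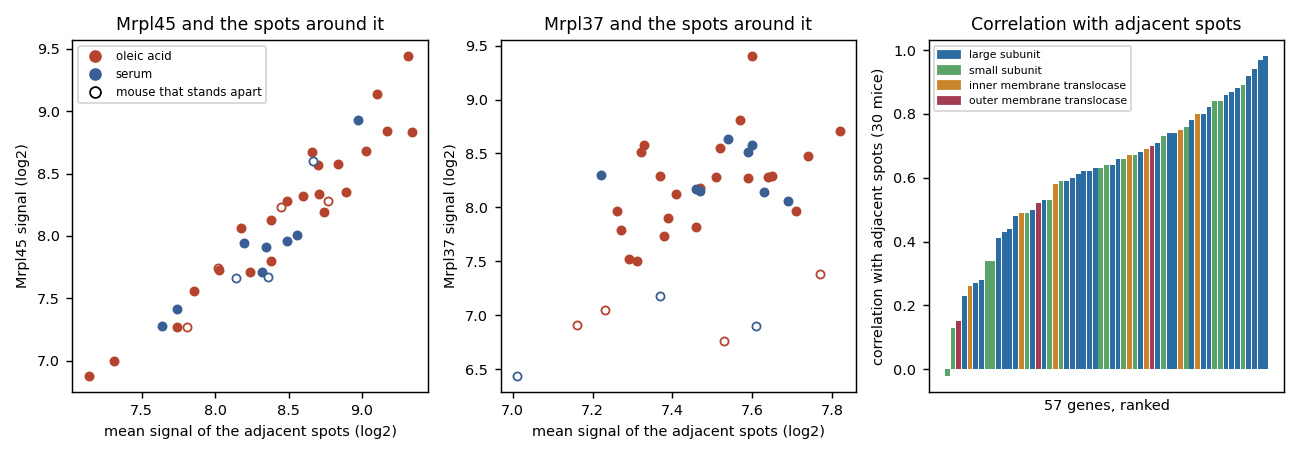
Log2 signal of a gene (vertical axis) against the mean log2 signal of its adjacent spots (horizontal axis) in each mouse, for 2 genes in the left and middle panels, and the correlation of each of the 57 genes with its adjacent spots over 30 mice, ranked and coloured by class, on the right. The bars run from -0.02 for Mrps15 to 0.98 for Mrpl36.

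Pairs of these genes correlated across mice about as weakly as pairs of all clones. Over the 30 mice, with group means removed, the 1596 pairs among the 57 genes had a median correlation of 0.02, and 4.32% of pairs exceeded 0.5. The 50 cytosolic ribosomal protein genes on the same arrays, given here as a comparison, had a median of 0.43 and 39% of pairs above 0.5, and pairs of all clones had a median of 0. Over all 37 mice the medians were 0.02 for the 57 genes, 0.24 for the cytosolic ribosomal proteins, 0.06 for 60 oxidative phosphorylation genes and 0 for all clones. Over the 30 mice, with the adjacent spots taken out, the median of the 57 genes was 0.06, beside 0.02 before. That of the cytosolic ribosomal proteins was 0.29, beside 0.43 before. Large subunit pairs alone had a median of 0.06 and small subunit pairs 0.02 over 37 mice, and the 28 genes well above background on at least 25 arrays had 0.02. These are descriptions, over mice whose arrays were normalised together.

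One set of 4 genes stood out in these pairs, namely Mrpl36, Mrpl45, Mrps10 and Tomm40, with r of 0.80 to 0.90. With the adjacent spots taken out, the 6 correlations among them ran from -0.21 to 0.47. Mrpl36 and Mrpl45 correlated with their own adjacent spots at 0.98 and 0.94, so little of their variation was left. Low values were bound to follow for them and are not read further. For Mrps10 the correlation with its own adjacent spots was 0.84, and for Tomm40 it was only 0.15. Mrpl36, the small protein that in bacteria is L36, had 8.87, 8.76, 7.33 and 7.94 at 1 h and 9.14, 9.54, 9.06 and 9.08 at 24 h, and Tomm40 had 9.27, 9.31, 8.40 and 8.67, and then 9.87, 9.64, 9.38 and 9.59. At 1 h the first 2 mice were high and the last 2 low for both genes, and for both all 4 mice at 24 h lay above those at 1 h. The deposited quality score, 0 or 1 per spot with a meaning not given in the sources used here, was 1 on no array for any of these 4 genes, and it was 0 for 72.7% of all clone spots. It was 1 on 46 arrays for Tomm34, 28 for Mrpl37, 26 for Mrpl3, 20 for Mrps15 and 17 for Timm8b.

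**Figure D5:**
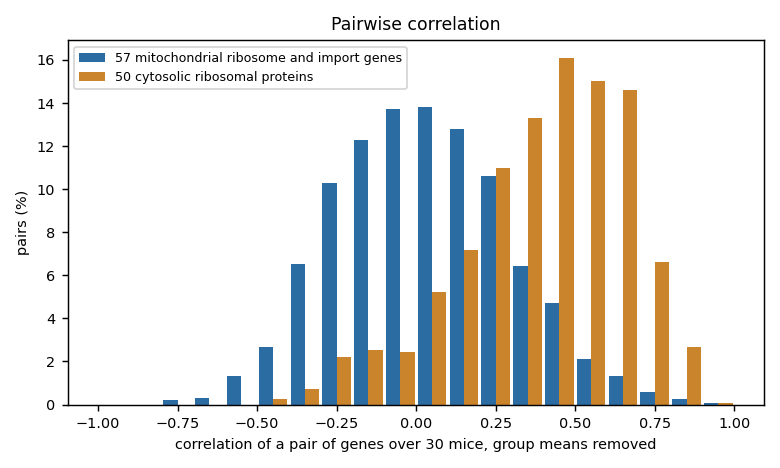
Share of gene pairs in percent (vertical axis) by their correlation over 30 mice with group means removed (horizontal axis), for the 57 mitochondrial ribosome and import genes in blue and 50 cytosolic ribosomal protein genes in orange. The blue bars centre near 0, with a median of 0.02, and the orange ones near 0.43.

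Where a gene had several clones, they seldom followed each other. The correlation of a further clone with the brightest, with group means removed over the 37 mice, ran from -0.61 for Mrpl46 to 0.52 for Mrpl48 and for Mrps17. Some of these clones were near background, so their r and sign say little. The further clone was well above it on 0 arrays for Mrpl38, 1 for Mrpl2 and 2 for Mrpl36. Both clones of Mrpl50 and of Mrps7 were on 0. Of better detected pairs, Mrpl23 (49 and 47 arrays) had r = -0.01 and Mrps17 (39 and 36) had 0.52. In late against early OA mice the clones of Mrpl23, Mrpl3, Mrpl36, Mrpl38, Mrpl45, Mrpl46, Mrpl50 and Timm17a had opposite signs, and Mrpl45 was the only one of them with a clone called there. For Mrpl3 the values were 0.01 and -0.07, for Mrpl23 0.09 and -0.25, for Mrpl36 0.54 and -0.04, for Mrpl38 -0.04 and 0.15, and for Mrpl46 -0.10 and 0.11. For Mrpl50 they were -0.02 and 0.13, and for Timm17a, a channel subunit of the presequence translocase, 0.13 and -0.18.

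Both Mrpl54 clones had lower means in the late mice (-0.49 and -0.42), and only the dimmer one passed (adjusted p = 0.0362). The 3 clones of Tomm20, the receptor that first recognises presequences, differed by 0.70, 0.39 and 0.28 between middle and early mice (adjusted p = 0.12, 0.203 and 0.365). They differed by -0.18, -0.51 and -0.40 in the late stage, with the same sign in all 3. The brightest Tomm20 clone had 7.71 to 10.35 in 4 OA mice at 1 h, and 9.62 to 10.93 at 3 h.

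Serum mice, sampled over the same interval with no OA, gave no called gene between late and early (0 of 57, against 0.0258% of clones), with 1 gene at an unadjusted p under 0.05. The smallest p-values were those of Mrpl28 (0.68 ± 0.29, adjusted p = 0.521), Mrps14 (-0.64 ± 0.32, 0.581) and Mrps10 (0.65 ± 0.32, 0.583). Mrpl37 differed by -0.68 ± 0.37, beside -0.65 ± 0.22 in OA mice. The median SE of 0.24 in the 3 early and 4 late serum mice leaves room for changes of the size seen in OA mice. When the late-minus-early difference of OA mice was tested against that of serum mice, 0 of 57 genes passed (0% of clones did), and none had an unadjusted p under 0.05. Smallest were those of Mrps18c, Mrpl14 and Timm50, each with an adjusted p of 1.

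In the direct comparison of OA with serum no gene of this machinery passed. Averaged over the 6 times 0 of 57 passed, as 0% of clones did, with 1 gene at an unadjusted p under 0.05. Timm50, the receptor of the presequence translocase, had -0.19 ± 0.09 (unadjusted p = 0.0389, adjusted p = 1), Mrpl11 -0.22 ± 0.12 and Mrpl38 0.19 ± 0.11. The difference over the 57 genes ran from -0.22 to 0.29, with a median of 0 and a median SE of 0.11.

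At single times 0 of 57 genes passed, while 0% of clones did at 1, 3 and 18 h, 0.0129% at 1.5 h and at 24 h, and 0.0517% at 4 h. At an unadjusted p under 0.05 were 0, 0, 4, 12, 1 and 2 genes in order of time. At 1 h the smallest p-values were those of Mrpl3 (-0.40), Mrpl36 (0.74) and Mrps12. At 1.5 h they were those of Mrpl38 (0.56), Tomm40 (-0.64) and Mrpl14, against a single serum mouse. Mrps12 at 1 h and Mrpl14 at 1.5 h were well above background on no array, so no size is given. At 3 h they were Mrps15 (-0.48), Timm50 (-0.52) and Mrpl43 (0.82). There Mrps15 was well above background on 0 of 6 OA and 2 of 2 serum arrays, and Mrpl43 on 3 of 6 and 0 of 2. Set against the floor of the dim arrays, the differences of Mrps15 and Mrpl43 were at least 1.11-fold and 1.31-fold. At 4 h the smallest p-values were those of Mrpl14 (-1.0, adjusted p = 0.229), Mrps15 (0.232) and Mrpl2 (0.269), the latter 2 with no size given because they were well above background on no array of that time. At 18 h they were Timm50 (-0.60), Timm44 and Mrpl47, and at 24 h Mrps18c, Mrpl49 (0.51) and Mrpl36 (0.82), with adjusted p of 0.679 or more. Timm44 and Mrpl47 at 18 h and Mrps18c at 24 h were well above background on no array, so no size is given. At 24 h Mrpl49 was well above it on 1 of 6 OA and 0 of 2 serum arrays. Timm50 at 18 h rested on serum mouse 1, which stands apart and had 8.57, while serum mouse 4 had 7.34 and the OA mice 7.25 to 7.5.

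At 4 h both serum mice and 2 of the 4 OA mice stand apart, and the count there turned on 1 mouse. Without serum 4 h mouse 4 the other, mouse 1, was the whole group, and 11 of the 57 genes passed, against 9.87% of clones. Mrpl14 (-1.83, adjusted p = 0.00117), Timm17a (-0.95, 0.0178), Mrpl32 (-1.27, 0.0179), Mrpl13 (-1.40, 0.0198), Mrpl46 (-0.71, 0.0202), Mrpl34 (-0.93, 0.0204), Timm8a1 (-1.60, 0.0245) and Mrpl51 (-0.81, 0.0398) were lower in OA mice. Mrpl27, Mrps15 and Mrpl2 also passed, but they were well above background on none of the 5 OA and 3 serum arrays of 4 h, so no direction or size is given for them. Mrpl14 was well above background on 0 of the 5 and 1 of the 3. A lone serum mouse is taken there to vary as the other groups do. Leaving out serum 18 h mouse 4 likewise left mouse 1 alone at 18 h, so the count there is not given.

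Genes that work with the ribosome and the translocases but carry other names in the array files were counted as 2 further lists, the first of which holds Mrpl58. Of 26 mitochondrial translation partners, such as tRNA synthetases and elongation factors, 2 rose and 2 fell between early and late OA mice (15.4%, against 8.23% of all clones), and 2 fell between early and middle (7.69%, against 9.21%). Rars2, the arginyl-tRNA synthetase, rose by 0.46 (adjusted p = 0.00665) and Tsfm, the exchange factor of the elongation factor Tu, by 0.89 (0.0419). Vars2, the valyl-tRNA synthetase, differed by -0.56 (adjusted p = 0.045) and Oxa1l, the insertase that receives newly made proteins at the inner membrane, by -0.50 (0.0217). The 2 that fell in the middle stage were Fars2, the phenylalanyl-tRNA synthetase (-0.69, adjusted p = 0.0116), and again Oxa1l (-0.41, 0.0495). Of 17 import partners none passed in the late stage, and Phb (-0.64, adjusted p = 0.0418) and Phb2 (-0.93, 0.0118), the prohibitins that ring the inner membrane, fell in the middle stage (11.8%, against 9.21%). With the adjacent spots as a covariate 5.52% of all clones passed in the late stage. Of the partners called above in that stage, Rars2 (0.37, adjusted p = 0.0143) and Vars2 (-0.67, 0.00653) passed again, and Tsfm (0.15, 0.59) and Oxa1l (0.01, 0.988) did not. Dhx30 (0.52, adjusted p = 0.0172) and Nsun4 (0.36, 0.0307), both translation partners, passed there only with the covariate. In the middle stage 7.13% of all clones passed with the covariate. Phb2 (-1.02, adjusted p = 0.00794) and Fars2 (-0.51, 0.0362) passed again, and Phb (-0.54, 0.0906) and Oxa1l (-0.09, 0.665) did not. Dhx30 (0.59, adjusted p = 0.00572), Vars2 (-0.60, 0.00794), Rars2 (0.29, 0.0306) and the import partner Trap1 (-0.40, 0.0284) passed in addition.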

How the data were processed

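For each array the authors deposited a linear intensity for every spot, with no background column, and a quality score of 0 or 1 per spot. They also deposited log2 intensities of all 49 arrays that, per the file headers, were quantile normalised and not adjusted on serum. In a further deposited table of log2 values, OA arrays are ratios to serum. The image and normalisation tools were not given in the sources used here. RNA was amplified linearly before labelling, per the labels' protocols.

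Here the spot intensities of 7771 clone spots were log2 transformed without background correction and quantile normalised, spots of a clone were averaged to 7739 clones, and mice with 2 arrays were given the mean of both. Gene symbols come from the files, updated through RefSeq (GRCm38.p6). Tests used limma 3.58.1 in R 4.3.3 (lmFit, contrasts.fit and eBayes) fitting 12 group means that share 1 spread, and Benjamini-Hochberg adjustment over all clones. The code was tested on simulated data. Groups, times and mouse numbers came from the titles. The series text counts 39 mice, and 2 of them, a serum mouse of 1.5 h and an OA mouse of 3 h, were not analysed here. Replicates are separate mice by their titles. The p-values measure the spread between the values of these mice, which also holds the error of the arrays. Arrays of the same mouse differed by a median of 0.2 over the genes described here, beside a median SD within groups of 0.3. Their consensus correlation was 0.5. Most mice had a single array, so array error and differences between mice were not separated in the tests.

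The genes named are those called in any comparison, the 10 with the smallest p in late against early OA mice, the 3 with the smallest p in every other comparison, the brightest and dimmest of each class, genes whose clones disagree in sign, and called partners. A few others were named after their values were seen (Mrpl22, Mrpl20, Mrps11, Tomm20, Mrpl58, the marker genes and the genes of the 4 h comparison without 1 mouse). The partners Dhx30, Nsun4 and Trap1 were also named after their values were seen. The members, the lists and the comparison of stages were chosen with earlier results of these data known. Alternatives covered scaling, background, filters, quality score, blocks, left-out mice and times, and, chosen after seeing the data, the mice that stand apart and the adjacent spots.

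Mice of different groups share numbers. Over the mice of the same number in different groups, deviations from the group means over clones correlated from -0.56 to 0.63 (median 0, 76 pairs), and over mice of different numbers from -0.83 to 0.83 (median 0.01, 504 pairs), so the numbers were not taken to pair mice.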

Additional observations from a re-analysis of the deposited data

Results flagged for a closer look

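Dixon's test at its 95% value was applied to the highest and lowest mouse of each OA group for 16 named genes, 96 groups in all, of which chance would flag about 1 in 20, and 9 were flagged. Of these, 4 are mice that stand apart from the rest on the first principal component. Tomm34 in OA 3 h mouse 7 was 6.78, with the nearest of the other 3 at 11.17, and in OA 18 h mouse 2 it was 8.55, with the nearest at 11.72. Mrpl28 in OA 3 h mouse 7 was 8.67, with the others at 7.30 to 7.40, and Mrpl30 in OA 18 h mouse 2 was 10.02, with the others at 8.93 to 9.0.

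The other 5 are in mice that do not stand apart. Timm8b was 9.42 in OA 1.5 h mouse 2, with the nearest of the other 5 at 8.95, and 9.47 in OA 18 h mouse 5, with the nearest at 9.12. Tomm34 was 10.17 in OA 24 h mouse 3, with the others at 10.62 to 10.65, and Mrpl36 was 9.54 in the same mouse, with the nearest at 9.14. Mrpl54 was 7.21 in OA 1 h mouse 2, with the nearest at 8.05.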

How the results depend on the processing

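Counts are of the 57 genes called, against 1 in late and 5 in middle versus early OA mice and 5 among the 6 times. In that main fit 8.23%, 9.21% and 12.1% of all clones passed. Without the 7 mice 17.6%, 2.92% and 19.5% did, so the share of all clones moved with the setting. For most other settings, and for the mice left out below, that share is not set beside the counts. Such counts are therefore not read as changes particular to these genes. Median scaling gave 2 in late, and the authors' quantile normalised values 0. A filter on dim clones gave 2 among the times. Leaving out spots of quality score 0 gave 0, 0 and 0, with only 5 of the genes testable. With each mouse as a random block over 49 arrays there were 4 in late and 8 among the times, and with all 74 clones of the genes 2 and 8. The replicate block gave 2, 3 and 3. It ended the calls of Mrps15 and Timm8b in middle and, among the times, those of Mrpl2 (adjusted p = 0.0501), Mrpl4 (0.0545) and Mrps15 (0.0742). Mrps15 was also lost with median scaling (adjusted p = 0.0604) and with mouse as a random block (0.074), and Timm8b with the authors' values (0.0549) and a variance trend (0.0641). In late, the counts were 3 without 1 h, 0 without 1.5 h, 8 without 18 h and 0 without 24 h. In middle, they were 3 without 1 h, 1 without 1.5 h, 9 without 3 h and 0 without 4 h. Without the 7 mice they were 7, 3 and 15, and with the adjacent spots as a covariate 3 in middle and 3 among the times.

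Leaving out 1 mouse at a time gave 0 to 3 in late, 2 to 7 in middle, 1 to 6 among the times and 0 to 11 for OA against serum at each time. It gave 0 to 0 for late against early in serum mice, for the difference between OA and serum, and for OA against serum averaged over times. The comparisons that need the only serum mouse of 1.5 h could not be made without it. Counts of 0 in comparisons with serum rest on 1 or 2 serum mice a time, and genes near the empty spots bound what could be seen. The cause of these differences was not tested.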
